A study of Homo sapiens with 5 samples.

Results

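The genes described here are the protein-coding genes of human chromosome 19 whose symbol is ZNF followed by a digit. They were taken by name and position from the RefSeq gene table of GRCh38.p14, and they number 250 of the 19974 protein-coding gene records scored. Of the 250 genes, 84 lie on the short arm (19p, before 26 Mb), 165 lie in 19q13 (from 32 Mb), and ZNF536 lies between these stretches. The data come from HT1376, a cultured line from a human bladder carcinoma, given either the vehicle DMSO or 250 nM CPI-0209 for 8 days. CPI-0209 inhibits EZH2, the enzyme of Polycomb repressive complex 2 that trimethylates lysine 27 of histone H3 (H3K27me3). ChIP-seq, which sequences the DNA that an antibody pulls down from fixed chromatin, was done for EZH2 and for H3K27me3 in each condition, with 1 library per group. The 4 libraries are available as lists of called intervals that carry positions and no score or read count.

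Genes of this kind encode proteins that contact DNA through rows of C2H2 zinc fingers. Many also carry a KRAB domain, which binds TRIM28 and through it SETDB1, an enzyme that methylates lysine 9 of histone H3, often at transposable elements. The genes arose largely by tandem duplication and stand side by side in clusters on chromosome 19. The clusters are known for H3K9me3 over the exons that encode the fingers, a mark that the lists used here do not hold. H3K27me3 is the mark of a separate repressive system, seen most at CG-rich promoters of developmental genes.

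Each gene was called for a mark where an interval touched the stretch from 2 kb before to 2 kb after either end of its gene record. A record may thus be called at neither end, 1 end or both ends. Reading depth is unknown, and a gene without a call may still carry the mark. With 1 library per group there was no test between DMSO and CPI-0209, and every difference below compares these libraries. Limits in brackets are exact (Clopper-Pearson) 95% binomial limits. They cover counting error, while neighbouring genes share intervals and ancestry.

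The promoters of 5 genes are shown because their calls span the patterns found. The stretches are the 250 bases before the RefSeq transcription start, written 5′ to 3′ along the gene, with each CG dinucleotide in capitals, from RefSeq GRCh38.p14. ZNF579 (chr19:55580849-55581098, minus strand) was called at both ends in all 4 lists. ZNF835 (chr19:56671758-56672007, minus strand) had H3K27me3 at both ends in DMSO and at neither under CPI-0209. ZNF554 (chr19:2819618-2819867, plus strand) had EZH2 at neither end in DMSO and at both under CPI-0209. ZNF568 (chr19:36916082-36916331, plus strand) had EZH2 at its start in DMSO and at neither end under CPI-0209. ZNF91 (chr19:23395472-23395721, minus strand) had no H3K27me3 in either list.
ZNF579: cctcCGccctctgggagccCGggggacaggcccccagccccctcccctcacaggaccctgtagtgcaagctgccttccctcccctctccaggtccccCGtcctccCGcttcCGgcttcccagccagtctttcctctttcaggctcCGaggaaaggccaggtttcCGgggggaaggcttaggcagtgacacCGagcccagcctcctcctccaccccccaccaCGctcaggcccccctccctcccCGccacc
ZNF835: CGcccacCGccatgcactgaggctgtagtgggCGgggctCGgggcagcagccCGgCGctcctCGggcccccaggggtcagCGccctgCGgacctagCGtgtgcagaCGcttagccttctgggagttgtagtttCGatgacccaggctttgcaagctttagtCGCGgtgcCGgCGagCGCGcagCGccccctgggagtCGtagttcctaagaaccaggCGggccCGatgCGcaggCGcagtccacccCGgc
ZNF554: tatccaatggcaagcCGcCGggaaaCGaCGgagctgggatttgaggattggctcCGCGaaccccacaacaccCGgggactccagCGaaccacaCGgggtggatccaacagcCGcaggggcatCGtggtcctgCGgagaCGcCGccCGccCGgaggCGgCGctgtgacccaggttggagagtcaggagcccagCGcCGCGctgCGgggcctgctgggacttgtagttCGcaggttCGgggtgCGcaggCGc
ZNF568: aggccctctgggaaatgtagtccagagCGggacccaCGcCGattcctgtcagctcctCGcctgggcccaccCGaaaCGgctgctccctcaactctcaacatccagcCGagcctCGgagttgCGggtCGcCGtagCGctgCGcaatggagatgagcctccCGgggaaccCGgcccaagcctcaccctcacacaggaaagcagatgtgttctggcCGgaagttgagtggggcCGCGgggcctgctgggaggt
ZNF91: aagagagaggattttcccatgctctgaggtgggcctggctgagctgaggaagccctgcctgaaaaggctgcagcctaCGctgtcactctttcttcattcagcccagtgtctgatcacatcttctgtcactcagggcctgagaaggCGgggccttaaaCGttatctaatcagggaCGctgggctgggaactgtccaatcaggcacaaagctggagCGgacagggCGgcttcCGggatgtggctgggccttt
These stretches hold 10 CG dinucleotides for ZNF579, 25 for ZNF835, 26 for ZNF554, 18 for ZNF568 and 7 for ZNF91. Their GC content is 70.4%, 69.6%, 68.8%, 65.6% and 56.8% in the same order.

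H3K27me3 was called at few of these genes in either condition. In DMSO, 22 of 250 had it at 1 end or more (8.80%, limits 5.60 to 13%), against 31.3% of all protein-coding genes. Under CPI-0209, 12 of 250 had it (4.80%, limits 2.50 to 8.23%), against 21.7% of all. At both ends it was called in 5 genes in DMSO and in 1 under CPI-0209, against 15.2% and 8.68% of all genes. The other protein-coding genes of chromosome 19 were called at 1 end or more in 37.9% and 24.6% of cases. ZNF genes on other chromosomes, 267 in number, were called in 25.8% and 13.9%. The limits for the chromosome 19 ZNF genes lay below the shares of both of these sets in each condition.

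**Figure D1:**
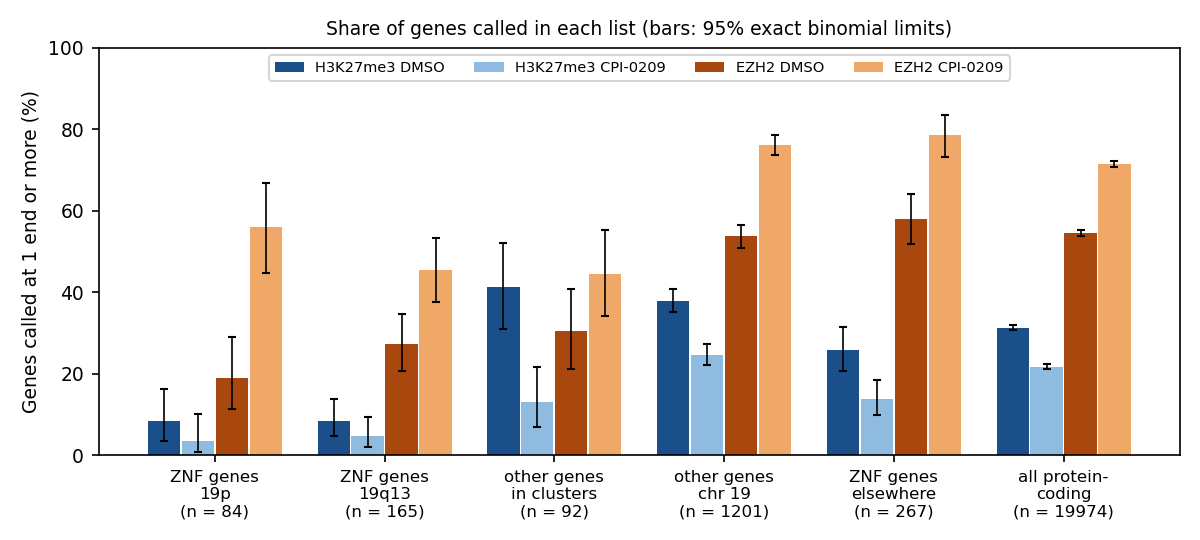
Percent of genes called at 1 end or more, for each of the 4 lists and for the chromosome 19 ZNF genes of 19p and 19q13 beside other sets of genes, with exact 95% binomial limits as error bars. For H3K27me3 in DMSO the ZNF genes stand at 8.33% on 19p and 8.48% in 19q13, below the other 4 sets.

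Of the 22 genes with H3K27me3 in DMSO, 12 still had it under CPI-0209 (54.5%, limits 32.2 to 75.6%) and 10 did not (45.5%, limits 24.4 to 67.8%). The share without a call is to be read against 32% of all genes called in DMSO, which lies within those limits. None of the 228 genes without H3K27me3 in DMSO had it under CPI-0209, against 0.642% of all such genes. The lists differ in length, with 315 Mb under H3K27me3 in DMSO and 114 Mb with the inhibitor. When the DMSO list was shortened to its widest intervals to match, the counts became 1 in DMSO and 12 under CPI-0209, so the direction turned. Such shortening takes narrow intervals out of 1 of the 2 lists.

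At 5 ZNF genes H3K27me3 touched both ends in DMSO, and they differed under CPI-0209. ZNF579 (chr19:55576774-55580848) lay wholly under H3K27me3 in DMSO and over 65.0% of its record under CPI-0209, and its widest domain went from 14.4 kb to 4.80 kb. Here and below a domain is a set of overlapping or abutting intervals merged, and a width is that of the widest domain touching an end window. ZNF579 was the gene called at both ends in both H3K27me3 lists, and EZH2 covered 74.8% of it in DMSO and 100% under CPI-0209. Its record is 4.08 kb long, and with windows of 1 kb either side H3K27me3 under CPI-0209 and EZH2 in DMSO were each called at 1 end. ZNF541 (chr19:47520690-47573309), known for a role in male meiosis, went from both ends to 1 end and from a width of 8.80 kb to 6.0 kb. ZNF556 (chr19:2867335-2883445), ZNF444 (chr19:56132553-56160893) and ZNF835 (chr19:56661980-56671757) had a call at neither end under CPI-0209. Their DMSO domains measured 8.20 kb, 9.20 kb and 3.6 kb. Outside the end windows, H3K27me3 under CPI-0209 covered 31.7% of the 8.20 kb domain at ZNF556 and 19.2% of a 5.20 kb domain at ZNF444. With windows of 5 kb either side, ZNF556 and ZNF444 were each called at 1 end under CPI-0209. At ZNF835 the share of the record under H3K27me3 went from 52.7% to 0. At ZNF444 both DMSO domains stood outside the record, at chr19:56127001-56132200 and chr19:56162001-56171200, so that 0% of the record itself was covered.

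The widest H3K27me3 domain at any of the 250 genes stood at ZNF135 and measured 34.8 kb (chr19:58026801-58061600) in DMSO. It also covered an end of ZSCAN1, a neighbouring gene for a SCAN-domain zinc finger protein, and its widest counterpart under CPI-0209 measured 15.4 kb. At the start of ZNF536, a repressor known from neuronal differentiation, the width was 13.6 kb in DMSO and 8.40 kb under CPI-0209. ZNF574 had 13.6 kb and 8.60 kb, in a DMSO domain that also reached GRIK5, a kainate receptor subunit gene. ZNF497 had 11.8 kb and 9.60 kb, in a DMSO domain shared with A1BG and ZSCAN22. ZNF558 had 11.2 kb in DMSO and no call at its ends under CPI-0209, and ZNF420 had 8.80 kb and none at its ends. H3K27me3 under CPI-0209 covered 0% of the ZNF558 domain and, outside the end windows, 29.5% of the ZNF420 domain. With windows of 5 kb either side ZNF420 was called at 1 end in both lists. ZNF558 was the gene with the widest DMSO domain among those with no call under CPI-0209.

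At all 12 genes called in both H3K27me3 lists the widest domain was narrower under CPI-0209. Their median went from 8.50 kb (range 4.80 to 34.8 kb) to 4.5 kb (range 1.80 to 15.4 kb). Over all protein-coding genes called in both lists the median went from 23.4 kb to 6.40 kb, and 4155 of 4254 genes were narrower, so narrowing was also the rule over all genes. The 10 genes called in DMSO alone had a median width of 6.80 kb (range 1.6 to 11.2 kb). Among them ZNF549 had the narrowest domain, 1.6 kb, followed by ZNF71 with 3.40 kb, ZNF835 with 3.6 kb and ZNF90 with 4.20 kb. At ZNF420, ZNF444, ZNF556 and ZNF791 part of a DMSO domain still lay under H3K27me3 in the CPI-0209 list, outside the end windows. Calls at narrow domains were absent under CPI-0209 more often than calls at wide ones: 3 of 4 ZNF genes with domains over 2 and up to 5 kb had no call, as had the 1 gene with less (ZNF549), 5 of 11 with over 5 and up to 10 kb (45.5%), and 1 of 6 with over 10 kb (16.7%). Over all genes the shares, from the class of over 2 kb, were 59%, 44.9% and 23.2%. The remaining kept genes, ZNF555, ZNF177, ZNF653, ZNF30, ZNF792 and ZNF837, had CPI-0209 widths from 1.80 kb at ZNF177 to 4.20 kb at ZNF837. The readthrough record ZNF559-ZNF177, which spans ZNF177, had H3K27me3 inside it over 8.21% of its length in DMSO and 3.08% under CPI-0209, and at neither of its ends.

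**Figure D2:**
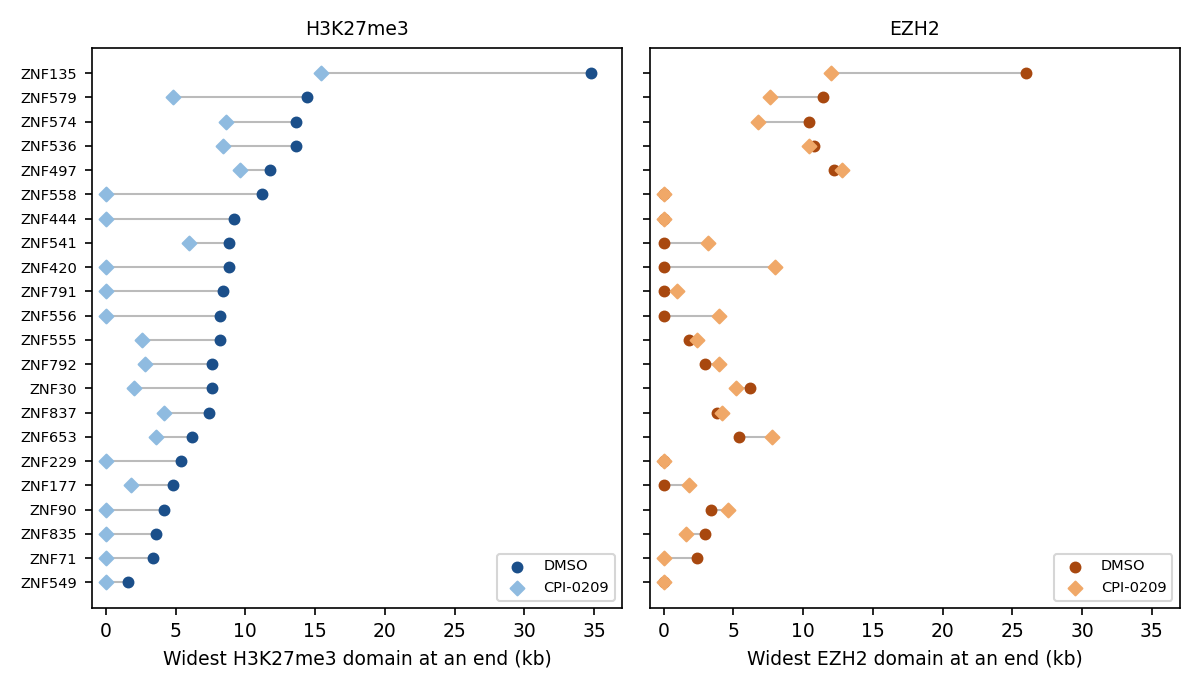
Width in kb of the widest H3K27me3 domain (left) and EZH2 domain (right) at an end of each of the 22 ZNF genes with H3K27me3 in DMSO, with the DMSO and CPI-0209 values of a gene joined by a line and 0 standing for no call. All 12 genes called in both H3K27me3 lists are narrower under CPI-0209, from a median of 8.50 kb to one of 4.5 kb.

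In DMSO 25 separate H3K27me3 domains touched the ends of these genes. Of these, 5 also touched an end of another protein-coding gene, among them ELAVL3, which encodes a neuronal RNA-binding protein, and MBD3L1. EZH2 intervals of the DMSO list overlapped 14 of the 25 domains, and 9 of these 14 held some H3K27me3 under CPI-0209. Of the 11 domains without EZH2, 6 held some. Counted by genes, 13 of the 22 H3K27me3 genes in DMSO also had EZH2 at an end (59.1%, limits 36.4 to 79.3%), against 74.6% over all genes, a value within those limits. Under CPI-0209 all 12 had EZH2 (limits 73.5 to 100%), against 98.6% over all genes. Of the 13 genes with both marks at an end in DMSO, 10 kept an H3K27me3 call (76.9%, limits 46.2 to 95%). Of the 9 with H3K27me3 and no EZH2 at either end, 2 did (22.2%, limits 2.81 to 60%). The same shares over all protein-coding genes were 82.9% and 24.3%, both within the limits for the ZNF genes. This split by genes does not ask that the marks meet. EZH2 in DMSO covered 0% of the H3K27me3 domains at ZNF555 and ZNF837, which count as with EZH2 and kept the call. It covered 54.5%, 77.8% and 3.57% of those at ZNF420, ZNF229 and ZNF558, which count as without EZH2 and lost the call. By domains the contrast was smaller, at the 9 of 14 and 6 of 11 given above.

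EZH2 was called at more of the 250 genes than H3K27me3, and at more under CPI-0209 than in DMSO. In DMSO 62 genes had EZH2 at 1 end or more (24.8%, limits 19.6 to 30.6%), against 54.6% of all genes. Under CPI-0209 123 genes had it (49.2%, limits 42.8 to 55.6%), against 71.5% of all. Calls at both ends numbered 4 and 14 genes, against 17.5% and 25.9% of all. Of the 188 genes without EZH2 in DMSO, 77 had it under CPI-0209 (41.0%, limits 33.9 to 48.3%), against 43.0% of all such genes, which lies within those limits. The shares were 52.7% for the other genes of chromosome 19 and 55.4% for ZNF genes elsewhere, both above those limits. For the other genes inside the clusters it was 18 of 64 (28.1%, limits 17.6 to 40.8%), below the share of the ZNF genes, with limits that overlap. EZH2 covered 193 Mb in the DMSO list and 226 Mb in the CPI-0209 list. Shortening the CPI-0209 list to its widest intervals to match turned the ratio of counts from 1.98 to 0.242, and asking for 50% of the window to be covered gave 1.21.

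ZNF575, ZNF579, ZNF524 and ZNF580 had EZH2 at both ends in both lists. Their records measure 5.25, 4.08, 3.56 and 2.47 kb, so the end windows lie close together or overlap, and 1 domain can touch both. ZNF554 was the single gene that went from neither end to both, and its widest CPI-0209 domain measured 6.80 kb. This is 1 of 188 genes called at neither end in DMSO, against 825 of 9070 over all protein-coding genes. A further 9 of the 58 genes called at 1 end went to both, against 1287 of 7415 over all genes, a similar share. The 9 are ZNF653, ZNF473, ZNF628, ZNF787, ZNF835, ZNF544, ZNF497, ZNF837 and ZNF324. Of the 77 genes called under CPI-0209 alone, 74 had domains that met no EZH2 interval of the DMSO list. At the other 3, ZNF420, ZNF577 and ZNF581, the domain met EZH2 that in DMSO stood outside the end windows, and the 8.00 kb domain at ZNF420 was covered over 60% of its length by EZH2 in DMSO. Over the 77 genes the median width was 1.6 kb (range 0.40 to 8.00 kb), against 3.0 kb over all genes in that class. At the 46 genes called in both EZH2 lists the median was 2.70 kb in DMSO and 2.50 kb under CPI-0209, and 23 of the 46 were narrower.

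**Figure D3:**
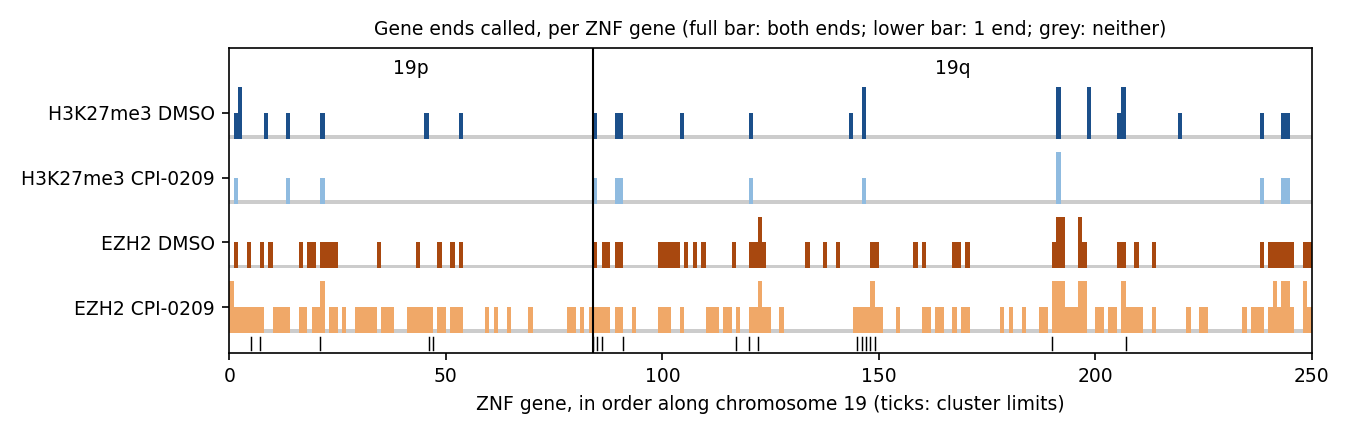
The 250 ZNF genes in their order along chromosome 19, 1 column each, with a low bar where a list called 1 end and a full bar where it called both; ticks mark cluster limits. EZH2 under CPI-0209 fills the most columns (123 genes) and H3K27me3 under CPI-0209 the fewest (12 genes).

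EZH2 calls present in DMSO were absent under CPI-0209 more often at these genes than over all genes, other chromosome 19 genes or ZNF genes elsewhere. Of the 62 genes called in DMSO, 16 had no EZH2 call at either end with the inhibitor (25.8%, limits 15.5 to 38.5%). The shares were 4.81% of all genes and 3.72% of the other genes of chromosome 19, and 7 of 155 ZNF genes elsewhere had none. Among other genes inside the clusters 5 of 28 had none and 82.1% kept a call (limits 63.1 to 93.9%). The 74.2% of chromosome 19 ZNF genes that kept one lies within those limits. The 16 genes are ZNF317, ZNF561, ZNF627, ZNF20, ZNF829, ZNF568, ZNF585A, ZNF383, ZNF527, ZNF573, ZNF284, ZNF226, ZNF235, ZNF616, ZNF701 and ZNF71. Their DMSO domains had a median width of 1.90 kb (range 0.40 to 6.60 kb), and narrow domains were lost more often in every set. At none of the 16 genes did the DMSO domain meet an EZH2 interval of the CPI-0209 list. Among domains of up to 2 kb, 9 of 23 ZNF genes lost the call (39.1%, limits 19.7 to 61.5%), against 15.6% of all genes and 9.68% of other chromosome 19 genes. Among those over 2 and up to 5 kb, 6 of 29 did (20.7%, limits 7.99 to 39.7%), against 6.26% and 3.88%. The share lay above that of the other chromosome 19 genes in all 7 alternative settings tried, which were added after the value was seen; with stretches under 2 overlapping intervals alone it was close to it, at 28.6% of 7 genes against 24.3%.

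Where a promoter entry gave the direction of transcription, the start could be told from the far end, as was so for 219 of the 250 genes. For 194 of these the transcription start lay within 2 kb of the record's end, and for the rest it lay further away. Throughout, a call at the start is a call in the window at the record's end on the start side. For the rest such a call may therefore miss the promoter. The plot of coverage by distance is instead centred on the transcription start itself. EZH2 was called at the start in 51 of 219 genes in DMSO (23.3%) and in 105 under CPI-0209 (47.9%). At the far end it was called in 11 (5.02%) and 18 (8.22%). Among 966 other genes of chromosome 19 the start values were 47.9% and 74.1%, and the far-end values 29.9% and 48.6%. H3K27me3 stood at the start of 15 ZNF genes (6.85%) and at the far end of 11 (5.02%) in DMSO, and at 6 and 6 under CPI-0209. For the other genes of chromosome 19 its start and far-end shares were 31.0% and 29.9% in DMSO and 19.9% and 15.7% under CPI-0209. At the ZNF genes EZH2 calls thus lay mostly at starts, and H3K27me3 calls showed no such tilt at these counts. In DMSO H3K27me3 was also near even between the ends of the other genes. Of the 16 genes with EZH2 in DMSO alone, 15 had it at the start, as ZNF568 did, and ZNF71 had it at the far end in a domain of 2.40 kb.

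**Figure D4:**
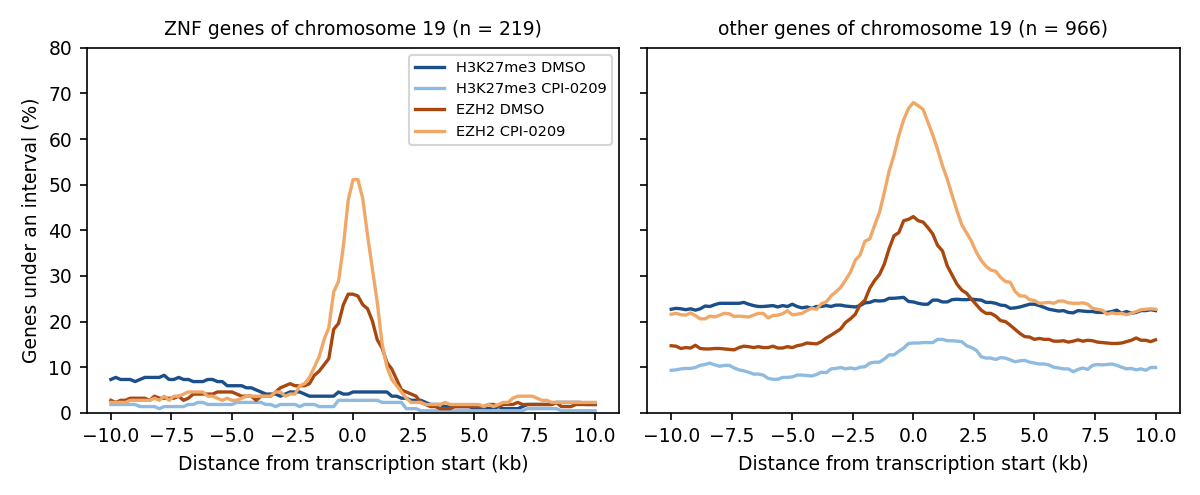
Percent of genes covered by each list at each distance from the transcription start, from 10 kb before to 10 kb after, for 219 chromosome 19 ZNF genes and 966 other genes of the chromosome. EZH2 over the ZNF genes peaks at the start, at 26% in DMSO and 51.1% under CPI-0209, and falls to 5.02% and 4.57% at 2 kb after it.

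Over the 219 genes taken as 1 set, EZH2 at the start under CPI-0209 was called more often where the promoter held more CG, while between the 2 stretches the order was the reverse. CG was counted in the 300 bases around the transcription start, while calls were made at the record's end. For genes where these lie more than 2 kb apart, the count and the call describe different places. The median number of CG dinucleotides was 20 over the 219 genes, 15 on 19p and 23 in 19q13, against 22 over all protein-coding genes. EZH2 at the start under CPI-0209 was called in 6 of 16 genes with 0 to 9 CG (37.5%) and in 33 of 86 with 10 to 19 (38.4%). It was called in 48 of 89 genes with 20 to 29 (53.9%) and in 18 of 28 with 30 or more (64.3%). For other genes of chromosome 19 the values were 45.5%, 74.4%, 88.1% and 88.6%, and the ZNF genes lay below them in every class, in the lowest class with limits that include the other value (15.2 to 64.6%). On 19p, the stretch where the ZNF genes have the lower median CG count, EZH2 stood at the start of 57.5% of them under CPI-0209, against 42.8% in 19q13. The other genes of chromosome 19 had the same order, at 82.0% on 19p and 67.7% in 19q13. Their median CG counts were 25 and 17, so the higher share on 19p is not particular to the ZNF genes. Within 19p EZH2 was called at 23 of 43 ZNF genes with 10 to 19 CG (53.5%) and 14 of 15 with 20 to 29 (93.3%). Within 19q13 it was called at 10 of 43 (23.3%) and 33 of 73 (45.2%), and at 17 of 25 with 30 or more (68%). The classes not named here held 12 or fewer genes each. Over the whole set the DMSO shares ran from 12.5% through 23.3% and 23.6% to 28.6%. The median CG count was 22 both for ZNF genes with EZH2 at the start in both lists and for those with it under CPI-0209 alone, 20 for DMSO alone and 18 for neither.

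Reading these promoters showed a recurrent word, ACTACA followed after any 3 bases by CCCA, or TGGG followed after 3 bases by TGTAGT on the opposite strand. It resembles part of the sequence that the factor ZNF143 is known to bind. The word was chosen after the promoters were read, and a match describes letters and no binding. It is in 43 of 219 promoters of 300 bases (19.6%, limits 14.6 to 25.5%), against 2.54% of 15812 promoters of all protein-coding genes, 2.17% of other chromosome 19 genes and 8.72% of ZNF genes elsewhere. By stretch it is in 3 of 73 promoters on 19p (4.11%) and 40 of 145 in 19q13 (27.6%). In the cluster of neighbouring genes from ZNF264 to ZNF446 17 of 40 promoters hold it, in the cluster from ZNF575 to ZNF180 it is in 9 of 19, and in the cluster from ZNF101 to ZNF254 in 0 of 29. Examples follow, with the word in capitals and up to 12 bases on each side, 5′ to 3′ along the gene: ZNF587 (chr19:57849730-57849766, plus strand) and ZNF814 (chr19:57889139-57889175, minus strand) from the cluster of ZNF264, ZNF284 (chr19:44072082-44072118, plus strand), ZNF573 (chr19:37779594-37779630, minus strand), ZNF527 (chr19:37370994-37371030, plus strand) and ZNF554 (chr19:2819818-2819854, plus strand).
ZNF587: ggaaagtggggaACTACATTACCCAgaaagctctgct
ZNF814: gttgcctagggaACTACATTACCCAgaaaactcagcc
ZNF284: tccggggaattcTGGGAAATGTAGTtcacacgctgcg
ZNF573: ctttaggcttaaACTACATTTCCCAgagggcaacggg
ZNF527: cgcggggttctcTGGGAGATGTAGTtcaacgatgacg
ZNF554: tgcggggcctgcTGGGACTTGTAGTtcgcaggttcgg
In DMSO, EZH2 was called at the start of 10 of 43 genes with the word and 41 of 176 without it, 23.3% in each case. Under CPI-0209 it was called at 14 of 43 (32.6%, limits 19.1 to 48.5%) and 91 of 176 (51.7%, limits 44.1 to 59.3%). These limits overlap, and the genes share ancestry within clusters, so the values are given as a description. Of the 43 genes with the word, 40 lie in 19q13. There EZH2 was called at the start of 42.8% of ZNF genes under CPI-0209, against 57.5% on 19p. The part of the stretch in the difference was not tested. At some genes, among them ZNF444, ZNF331 and ZNF814, the word lay more than 2 kb from the record's end where the call was made.

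The genes fell into 20 clusters, joining neighbours under 500 kb apart, of which 8 had 10 or more genes and together held 226. On 19p, H3K27me3 was called at 7 of 84 genes in DMSO and 3 under CPI-0209 (8.33% and 3.57%), and EZH2 at 16 and 47 (19% and 56.0%). In 19q13, H3K27me3 was called at 14 of 165 and 8 (8.48% and 4.85%), and EZH2 at 45 and 75 (27.3% and 45.5%). New EZH2 calls were made at 35 of 68 genes on 19p (51.5%, limits 39.0 to 63.8%) and 42 of 120 in 19q13 (35.0%, limits 26.5 to 44.2%). The share over all genes was 43.0%, within both. Among the other protein-coding genes it was 56.5% on 19p, within the limits there, and 49.8% in 19q13, above them. Those other genes were called for EZH2 in 56.4% and 79.6% of cases on 19p and in 51.5% and 73.1% in 19q13. For H3K27me3 their shares were 31.7% and 21.8% on 19p and 43.6% and 27.2% in 19q13. The cluster from ZNF101 to ZNF254 (chr19:19668153-24129968) has 37 genes and had H3K27me3 at ZNF90 alone in DMSO and at none under CPI-0209. Its longest stretch without H3K27me3 was 1592 kb in DMSO and 1880 kb under CPI-0209. The cluster from ZNF175 to ZNF331 had no H3K27me3 call at any of 41 genes in either list. Its EZH2 calls numbered 6 and 15.

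The EZH2 calls present in DMSO alone were unevenly spread over the large clusters, at small counts. Of the 250 ZNF genes, 16 of 62 lost the call and 77 of 188 acquired one. Over all protein-coding genes the shares were 4.81% and 43.0%. Among other genes inside the clusters, 5 of 28 lost the call and 18 of 64 acquired one. In the cluster from ZNF565 to ZNF573, 6 of 9 genes called in DMSO lost the call and 7 of 17 others acquired one, so that the totals of 9 and 10 hide an exchange of genes. In the cluster from ZNF575 to ZNF180, 3 of 5 lost the call and 3 of 18 acquired one. In the last cluster, from ZNF264 to ZNF446 with 43 genes, 0 of 11 lost it and 9 of 32 acquired it. The cluster from ZNF653 to ZNF791 went from 6 to 17 of 25, with 2 lost and 13 acquired. Losses were 2 of 5 from ZNF414 to ZNF846, 2 of 6 from ZNF175 to ZNF331 and 1 of 7 from ZNF628 to ZNF835. From ZNF101 to ZNF254 the loss was 0 of 3. In the cluster from ZNF565 to ZNF573, ZNF568 and ZNF829 share 1 DMSO domain of 1.20 kb and count as 2 of its losses.

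**Figure D5:**
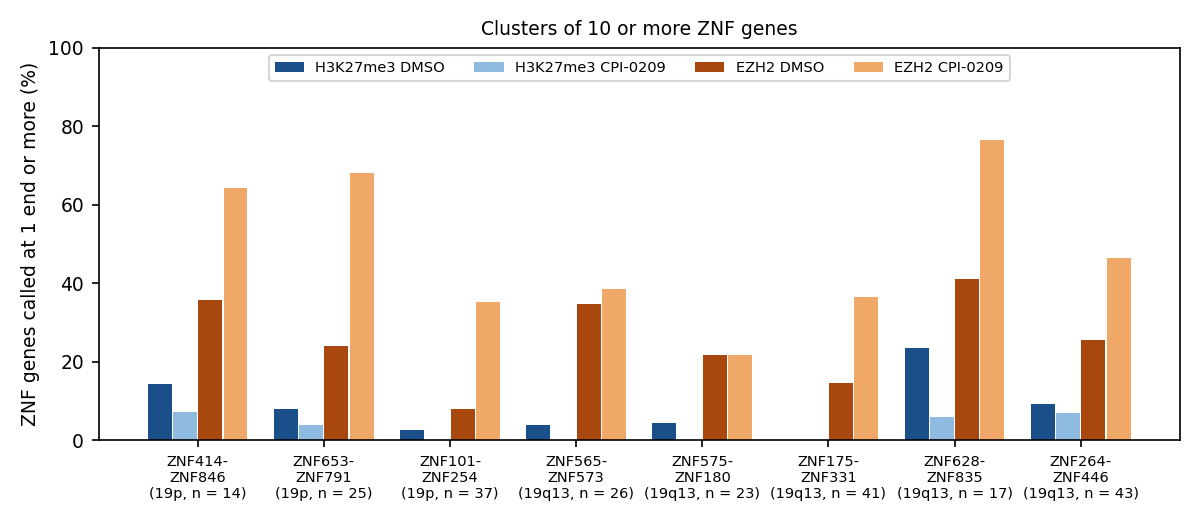
Percent of genes called at 1 end or more in each of the 8 clusters of 10 or more ZNF genes, for each list. EZH2 stands at 6 and 17 of 25 genes in the cluster from ZNF653 to ZNF791, and in the cluster from ZNF575 to ZNF180 it is 5 of 23 in both lists.

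Other protein-coding genes inside the same clusters carried H3K27me3 more often. Of 92 such genes 38 were called in DMSO (41.3%, limits 31.1 to 52.1%) and 12 under CPI-0209 (13%), while of the 243 ZNF genes in clusters of more than 1 gene 20 and 10 were called (8.23% and 4.12%). In the cluster from ZNF628 to ZNF835, 16 of 25 such genes were called in DMSO beside 4 of 17 ZNF genes. In the cluster from ZNF414 to ZNF846 these numbers were 12 of 14 beside 2 of 14. From ZNF653 to ZNF791 they were 1 of 4 beside 2 of 25, and from ZNF101 to ZNF254 0 of 2 beside 1 of 37. From ZNF565 to ZNF573 they were 0 of 4 beside 1 of 26, and from ZNF575 to ZNF180 1 of 10 beside 1 of 23. From ZNF175 to ZNF331 they were 2 of 14 beside 0 of 41, and from ZNF264 to ZNF446 4 of 13 beside 4 of 43. EZH2 was called at 28 of the 92 (30.4%) in DMSO and 41 (44.6%) under CPI-0209, near the 24.7% and 47.7% of those ZNF genes. Record length was not the same, with a median of 23.3 kb for the ZNF genes and 14.0 kb for the 92 genes, and its part in the result was not tested.

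Counted by length, the gene records covered 7.11 Mb when merged. H3K27me3 covered 160 kb of this in DMSO (2.25%) and 40.2 kb under CPI-0209 (0.566%). ZNF536, with a record of 488 kb, held 74.6 kb and 12.6 kb of this, and without it the shares were 1.28% and 0.417%. EZH2 covered 157 kb (2.21%) and 233 kb (3.29%). Over the other genes of chromosome 19 the values were 21.6% and 10.3% for H3K27me3 and 15.4% and 22.4% for EZH2. In all, 91 of the 250 genes met no interval of any of the 4 lists over the record or its end windows (36.4%), against 13.6% of other chromosome 19 genes and 19.1% of all genes.

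Genes with a known role were described whatever their values. ZNF91, which silences SVA elements, had no H3K27me3 in either list, no EZH2 at its ends in DMSO and a 0.600 kb EZH2 domain at its start under CPI-0209. ZNF93, which binds LINE-1 elements, had EZH2 at its start in both lists, 5.20 kb in DMSO and 1.00 kb under CPI-0209, and no H3K27me3. ZNF274, which brings SETDB1 to zinc finger genes, had EZH2 at its start in both lists, with widths of 2.0 kb and 1.6 kb. ZNF177 kept H3K27me3 at its start with widths of 4.80 kb and 1.80 kb, and had EZH2 there under CPI-0209 alone, with 1.80 kb. ZNF331, an imprinted gene, had no call at either end of its record in any list, and EZH2 covered 3.38% and 2.60% of the record. ZNF568, whose mouse counterpart silences a placental transcript of Igf2, had a 1.20 kb EZH2 domain at its start in DMSO and none at its ends under CPI-0209. ZNF649 was touched by no interval in any list.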

How the data were processed

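The 4 deposited lists (EZH2 and H3K27me3, DMSO and CPI-0209, 1 library each) give interval positions (chromosome, start, end), per the file headers, and no other value, such as a score. The submitters' processing notes name BWA, SICER and the build hg38, and give no version, role or setting. The control used for calling and the placement of reads from near-identical gene copies are not given in the sources used here. Input was not analysed here. Starts were counted from 0 in the lists and are printed from 1. Intervals in a list overlap, for what reason is not stated, and overlapping or abutting intervals were merged into domains.

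Genes were matched by symbol to RefSeq GRCh38.p14. The gene table gives no strand, so both record ends were scored, and a promoter table gave the start of 219 of the 250 genes. Records overlap one another at 34 genes and end windows at 72, and 4 records have a hyphen in the symbol. Of these, ZNF559-ZNF177, ZNF816-ZNF321P and ZNF765-ZNF761 are readthroughs with 2 joined names. ZNF470-DT is not a readthrough, matched the symbol rule and is counted with the 250. Calls needed 1 bp of overlap. Python 3.11.15, NumPy 2.4.6 and SciPy 1.17.1 were used, and the interval functions were tested on simulated data. The genes, lists and rules were chosen with earlier results of these data known. Named were genes with H3K27me3 at both ends, the 8 with the widest H3K27me3 domains, genes going from neither end to both for EZH2, the 3 most covered of each large cluster, and genes of known role; others were named after their values were seen. A planned count of finger motifs in proteins was not made, since no protein table was used here, and the cell line could not be checked by markers, since the lists carry no expression. Alternatives were other windows, stricter calls, lists of equal length, the start end alone and domains in place of genes.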

Additional observations from a re-analysis of the deposited data

How the results depend on the processing

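Over 11 comparisons and 73 alternative values, 51 stayed within 1.5 times the value reported, 18 moved further and 4 turned direction. The share of ZNF genes called stayed below that of the other chromosome 19 genes in 28 of 28 alternative values. With stretches under 2 overlapping intervals alone, the ratio of CPI-0209 to DMSO counts became 0.0667 for H3K27me3 (0.545 as reported) and 3.71 for EZH2 (1.98), and the ratio of covered record length 0 (0.252) and 4.08 (1.48). The share of H3K27me3 genes with EZH2 in DMSO became 20% (59.1%), and the ratio of ZNF genes to other chromosome 19 genes for EZH2 0.146 in DMSO (0.462) and 0.304 under CPI-0209 (0.646). With intervals of at least 4 kb alone, the H3K27me3 count ratio became 0.333, the share with EZH2 38.9%, and the EZH2 ratios to other genes 0.139 and 0.164. With 50% of the window covered, the EZH2 count ratio became 1.21, its ratio to other genes under CPI-0209 0.261, and the share of EZH2 genes without a call under CPI-0209 42.4% (25.8%), an alternative chosen after seeing the data. With the longer list shortened to its widest intervals, the count ratios turned to 12 for H3K27me3 and 0.242 for EZH2, and the length ratios to 17.0 and 0.403. The share with EZH2 became 100%, the ratios to other genes 0.0552 for H3K27me3 in DMSO and 0.129 for EZH2 under CPI-0209, and the share of EZH2 genes without a call 80.6%, beside 31.5% of other chromosome 19 genes. ZNF541 then changed by 1 end for H3K27me3 and ZNF835 by -1 end for EZH2, both opposite to the reported direction. Shortening and the width minimum remove narrow intervals by construction; for the rest the cause was not tested.

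Depth is unknown, and a call missing from a list and one below that library's detection cannot be told apart. No paired analysis was possible because each group has 1 library and the labels carry no replicate numbers. Leaving out a replicate was not possible with 1 library per group.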

Other observations

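Of the other genes inside the clusters, 3 families were chosen after their values were seen. Of 8 olfactory receptor genes inside the clusters, which encode odorant receptors of sensory neurons, 7 were called in DMSO and 1 under CPI-0209, and EZH2 was called at 3 and 1. Of 6 NLRP genes, 5 were called for H3K27me3 in DMSO and 0 under CPI-0209, and EZH2 at 0 in both lists. Of 7 ZSCAN genes, which encode zinc finger proteins with a SCAN domain, 4 and 2 were called for H3K27me3, and 4 and 5 for EZH2. Over all protein-coding genes the shares called were 31.3% and 21.7% for H3K27me3 and 54.6% and 71.5% for EZH2.

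In the list of 25 genes for KRAB cofactors and H3K9 methylation, H3K27me3 was called at 1 gene in each condition (4.00%, against 31.3% and 21.7% of all genes) and EZH2 at 19 and 22 (76% and 88%, against 54.6% and 71.5%). The 1 gene was DNMT3B, a DNA methyltransferase, called at both ends in DMSO and at 1 under CPI-0209, with widths of 18.4 kb and 5.60 kb. TRIM28, the KRAB corepressor, ATRX and UHRF1 had no call at an end in any list.

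In a list of other zinc finger and cluster genes of chromosome 19, of which 28 of 32 were scored, H3K27me3 was called at 11 genes in DMSO and 9 under CPI-0209 (39.3% and 32.1%, against 31.3% and 21.7% of all genes), and at both ends at 7 and 1. EZH2 was called at 14 and 19 (50% and 67.9%), near the 54.6% and 71.5% of all genes. ZIM3, a KRAB zinc finger gene, went from both ends to 1, with widths of 17.6 kb and 4.6 kb, and had no EZH2 call. ZSCAN5B went from both ends to 1, with 32 kb and 2.20 kb, and had EZH2 at both ends in both lists. The imprinted gene PEG3 had no call in any list.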
